A study of Mus musculus with 6 samples.

Results

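Macrophage and dendritic cell genes were measured in sorted regulatory T (Treg) cells, in which a pure sort should leave little RNA of either cell type. The set holds 33 genes of the 19752 tested, and all 33 had a probe set that names no other gene. It was read as 17 macrophage and monocyte genes, 7 dendritic cell genes and 9 genes that both kinds of phagocyte share. Treg cells are CD4 T cells that restrain immune responses under the control of the transcription factor Foxp3. They came from the pancreas (3 arrays) and the spleen (3 arrays) of female NOD mice, a strain that develops autoimmune diabetes spontaneously. All mice were 10 weeks old, prediabetic and untreated as far as the labels say, and their background is given as NOD NRB_SFB+. All carried a Foxp3 reporter, Foxp3-ires-gfp, in which green fluorescent protein (GFP) is made from the Foxp3 transcript. Cells negative for the dead-cell dye DAPI and positive for CD4, TCRb, CD45 and GFP were sorted a second time directly into TRIzol, and the RNA was amplified for Affymetrix Mouse Gene 1.0 ST arrays. Macrophages and dendritic cells also carry CD45 but not the T cell receptor, so the gate on TCRb and GFP would leave them out. Nothing in the labels ties each array to its own mouse or pool of mice. The p-values therefore reflect the spread among these samples alone, and that spread may be technical.

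Macrophages are tissue phagocytes that depend on the receptor Csf1r and clear dead cells and microbes through lysosomal enzymes, complement and Fc receptors. Conventional dendritic cells depend on the receptor Flt3, carry the transcription factor Zbtb46 and present antigen to T cells, and plasmacytoid dendritic cells are interferon producers marked by Siglech. Both lineages need PU.1, the transcription factor encoded by Spi1, and both infiltrate or reside in the islets of NOD mice. B cells, which gather in the same lesions, also make PU.1 and several of the shared phagocyte genes.

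The promoters of 5 genes are shown because the results turn on them. Lyz2 was the member with the clearest difference between tissues and Lyz1 is its near copy, Ms4a6c was lower in pancreas on average, and Cybb and Cd209a came next after Lyz2 in the size of the difference. The reference sequences come from the RefSeq table for GRCm38.p6, the C57BL/6J genome, which can differ from the NOD genome. Each run holds the 250 bases before the transcription start, 5′ to 3′ on the gene's own strand, and capitals mark AGGAAGT, a core that PU.1 and other ETS factors bind, or its reverse complement ACTTCCT.
Lyz2, chr10:117282273-117282522, minus strand: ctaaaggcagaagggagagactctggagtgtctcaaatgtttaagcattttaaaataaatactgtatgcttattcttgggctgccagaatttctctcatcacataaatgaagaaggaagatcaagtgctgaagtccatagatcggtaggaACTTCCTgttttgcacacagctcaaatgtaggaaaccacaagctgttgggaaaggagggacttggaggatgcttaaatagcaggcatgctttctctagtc
Lyz1, chr10:117292869-117293118, minus strand: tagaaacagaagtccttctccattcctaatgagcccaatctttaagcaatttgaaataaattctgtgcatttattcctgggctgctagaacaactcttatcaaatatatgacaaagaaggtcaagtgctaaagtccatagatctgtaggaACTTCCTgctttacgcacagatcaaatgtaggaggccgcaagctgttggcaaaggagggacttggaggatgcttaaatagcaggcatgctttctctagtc
Ms4a6c, chr19:11469118-11469367, plus strand: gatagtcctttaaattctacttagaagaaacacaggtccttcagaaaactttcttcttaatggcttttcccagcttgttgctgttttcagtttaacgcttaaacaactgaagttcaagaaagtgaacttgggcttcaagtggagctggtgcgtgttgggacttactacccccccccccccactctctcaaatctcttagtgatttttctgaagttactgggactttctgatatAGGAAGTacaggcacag
Cybb, chrX:9469325-9469574, minus strand: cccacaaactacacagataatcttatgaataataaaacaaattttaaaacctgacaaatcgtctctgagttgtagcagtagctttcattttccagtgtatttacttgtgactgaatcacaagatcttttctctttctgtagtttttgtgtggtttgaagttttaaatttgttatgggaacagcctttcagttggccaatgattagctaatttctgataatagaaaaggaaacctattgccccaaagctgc
Cd209a, chr8:3748985-3749234, minus strand: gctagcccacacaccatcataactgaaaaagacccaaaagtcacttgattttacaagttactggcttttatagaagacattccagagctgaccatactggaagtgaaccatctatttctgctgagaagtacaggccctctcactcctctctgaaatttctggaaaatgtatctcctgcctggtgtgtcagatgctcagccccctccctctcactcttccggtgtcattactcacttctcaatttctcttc

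The promoters of Lyz2 and Lyz1 shared 205 of 260 columns of a global alignment (78.8%), and both held the core at the same place, from position -100 counted from the start. Ms4a6c held it from position -17, and the windows of Cybb and Cd209a did not hold these letters. Promoters were matched for 27 of the 33 members (32 windows), of which 6 windows held the core on either strand, those of Lyz2, Ms4a6c, C1qb, C1qc, Fcgr1 and Mrc1. That was 18.8% of the members' windows, against 7.69% of the 32851 windows of all genes. A match describes letters and is not evidence of binding.

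The level below which a probe set could not be told from background was a log2 intensity of 5.99 (an intensity of 63.4), the 95th percentile of 1190 olfactory and vomeronasal receptor genes. The arrays had 11165 to 12468 genes above it. Their medians were alike, but the interquartile range of the log2 values ran from 2.10 on pancreas array 3 to 2.96 on pancreas array 1, and spleen array 1 was also narrow, at 2.38. Genes of the sorted population were at similar levels, with 0 of 12 sorting and T cell identity genes past the test in either direction in limma (1 higher and 0 lower at an unadjusted p under 0.05) and a median log2 fold change of -0.04. In such bulk samples, fewer cells of a type and less RNA per cell cannot be told apart.

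Many genes that define macrophages and dendritic cells were not detected above background in Treg cells of either tissue. Of the 33 members, 16 had a mean over the 6 arrays above background (48.5%, against 59.4% of all genes), and 15 were below it on every array. Lyz2 was the only member past the test in limma (1 of 33, where 0.678% of all genes were called in either direction). It was higher in pancreas, the direction of 0.547% of all genes, and 0 members were called lower, against 0.132% of all genes. At an unadjusted limma p under 0.05, 8 members were higher and 0 lower in pancreas, against 3.20% and 3.64% of all genes. The arrays of the tissues did not overlap for 9 members, all 9 higher in pancreas (27.3%), where 4.57% of all genes were non-overlapping and higher and 5.81% non-overlapping and lower.

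**Figure D1:**
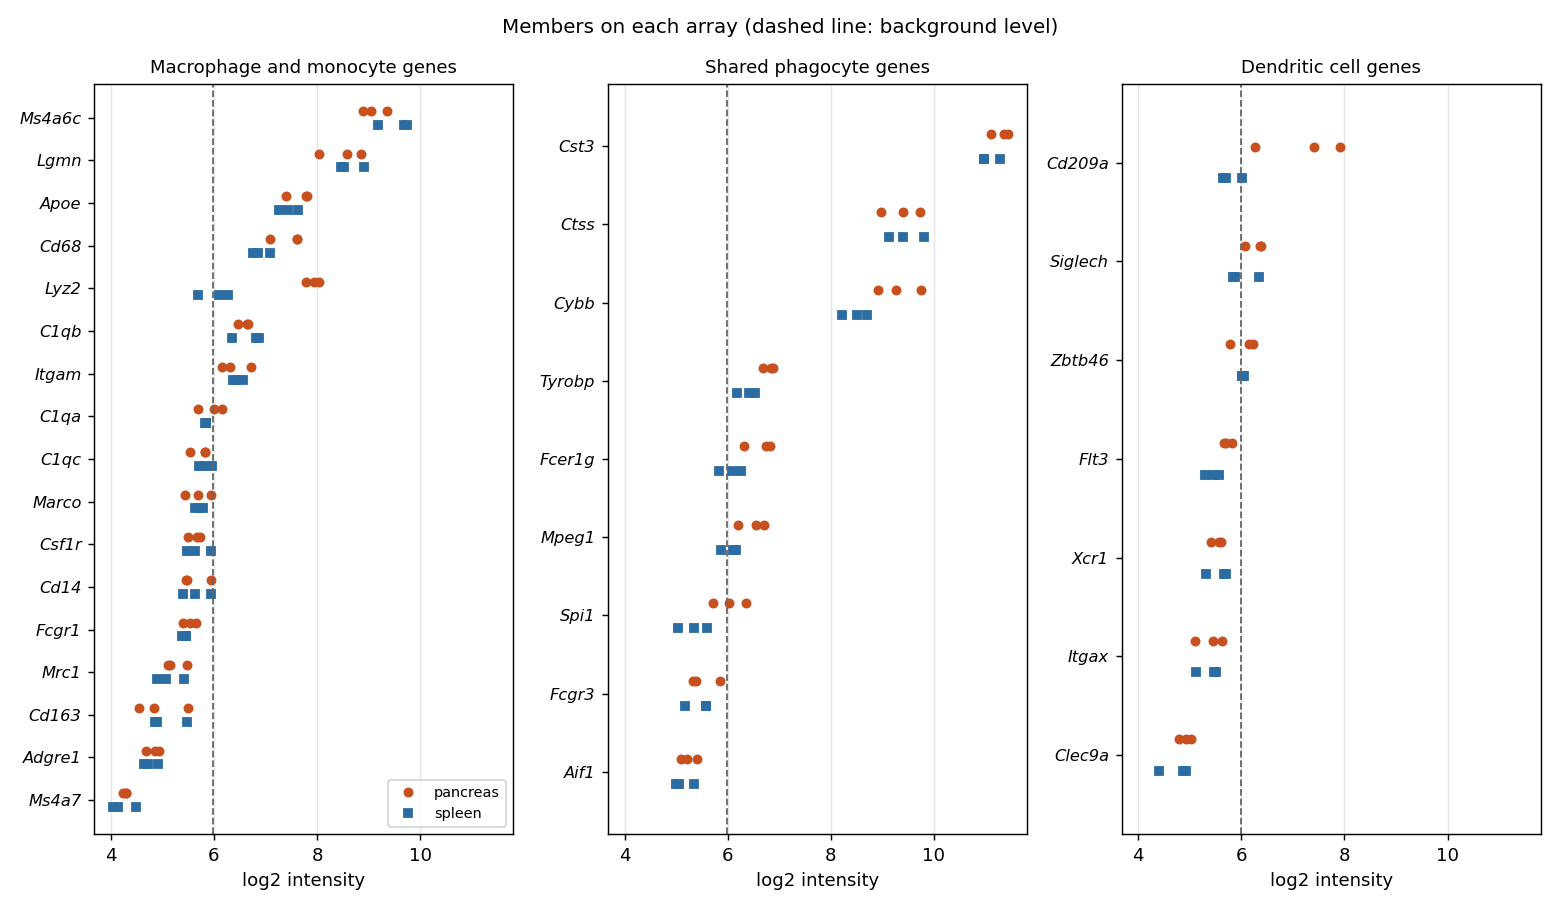
Log2 intensity (x axis) of the 33 members on each array, with pancreas as circles above spleen as squares, grouped by role and ordered by mean level. The dashed line is the background level of 5.99. Lyz2 stands out among the macrophage genes and Cd209a among the dendritic cell genes, and 15 members lie wholly left of the line.

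Lyz2, the lysozyme of macrophages and neutrophils, was at a log2 intensity of 8.04, 7.79 and 7.94 on the pancreas arrays, against 6.27, 5.69 and 6.10 on the spleen arrays. All 3 pancreas arrays lay close together and at least 1.52 above the highest spleen array, and 1 of the 3 spleen arrays was below background. The means were 7.92 ± 0.13 in pancreas and 6.02 ± 0.30 in spleen (SD, n = 3 each), a 3.74-fold difference (log2 fold change 1.90 ± 0.19 SE, limma adjusted p = 0.00134). Leaving out any 1 of the 6 arrays kept the call (highest adjusted p 0.0176). It ended when values under background were set to that level (1.80, adjusted p = 0.0896), a setting in which 3 genes of the whole table passed. Over all 15 alternatives its adjusted p ran from 2.26e-06 to 0.0896.

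Lyz1, the intestinal lysozyme beside Lyz2 on chromosome 10, is similar enough that the probe sets may share signal. It was at 7.27, 6.47 and 7.21 in pancreas, against 6.47, 6.33 and 6.23 in spleen (log2 fold change 0.64 ± 0.22 SE, adjusted p = 0.435). Pancreas array 2 was only just above the highest spleen array for Lyz1, whereas for Lyz2 it lay with the other pancreas arrays.

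None of the genes that identify a macrophage passed the test beside Lyz2. Csf1r, the growth factor receptor on which macrophages depend, was at 5.66, 5.49 and 5.72 in pancreas, against 5.94, 5.64 and 5.48 in spleen, below background on all 6 arrays. The same was true of Adgre1, which encodes the macrophage marker F4/80, of the high-affinity IgG receptor gene Fcgr1, of the mannose receptor gene Mrc1, of the scavenger receptor genes Cd163 and Marco, of the endotoxin co-receptor gene Cd14, and of Ms4a7 and C1qc. Their log2 fold changes lay between -0.12 and 0.12, within the SE of each. A value below background cannot show whether a gene was silent or expressed at a low level.

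The complement genes C1qa, C1qb and C1qc encode the chains of C1q, a hallmark product of tissue macrophages. C1qa was at 5.69, 6.15 and 6.01 in pancreas, against 5.85, 5.82 and 5.85 in spleen, around the background level. C1qb was above background on every array, at 6.46, 6.64 and 6.65 in pancreas, against 6.87, 6.81 and 6.35 in spleen. The tissues overlapped for all 3 chains, with log2 fold changes of 0.11, -0.09 and -0.12 for C1qa, C1qb and C1qc (adjusted p of 0.9999 or more).

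Among the macrophage genes above background in both tissues, Cd68, a lysosomal membrane protein, was at 7.62, 7.62 and 7.09 in pancreas, against 6.86, 6.76 and 7.08 in spleen. The tissues did not overlap, by a margin of 0.0035, and the difference did not pass the test (log2 fold change 0.54 ± 0.19 SE, adjusted p = 0.473). Itgam, the CD11b integrin chain, was at 6.72, 6.15 and 6.31 in pancreas, against 6.42, 6.56 and 6.37 in spleen, with overlap (-0.06 ± 0.19 SE).

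Ms4a6c, a four-span membrane protein of monocytes, was at 9.04, 8.89 and 9.36 in pancreas, against 9.69, 9.75 and 9.18 in spleen. It was lower in pancreas on average, with overlap and without passing the test (log2 fold change -0.45 ± 0.21 SE, adjusted p = 0.756). Related genes may share signal with it: Ms4a6b, which T cells also express, averaged 11.11 ± 0.25 in pancreas and 11.63 ± 0.16 in spleen (SD, n = 3 each), a log2 fold change of -0.52 ± 0.18 SE (adjusted p = 0.445), and Ms4a6d was below background in both tissues.

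The protease gene Lgmn, which encodes the lysosomal asparaginyl endopeptidase legumain, and the lipid carrier gene Apoe were clearly above background in both tissues. Lgmn was at 8.58, 8.85 and 8.04 in pancreas, against 8.46, 8.91 and 8.52 in spleen (log2 fold change -0.14 ± 0.23 SE). Apoe was at 7.41, 7.79 and 7.80 in pancreas, against 7.62, 7.43 and 7.25 in spleen (0.23 ± 0.18 SE). The tissues overlapped for both, and neither passed the test (adjusted p of 0.9999 or more). The direction for Lgmn turned without pancreas array 3 or spleen array 2.

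Most shared phagocyte genes had a higher mean in pancreas, though none passed the test. The mean was higher in pancreas for 8 of the 9, where 49.8% of all genes had a higher mean there. Arrays did not overlap for 5, all 5 higher in pancreas (55.6%, against 4.57% of all genes). In limma 0 passed the test over all genes. At an unadjusted limma p under 0.05, 5 were higher and 0 lower, against 3.20% and 3.64% of all genes. The median log2 fold change was 0.42, against -0.00091 over all genes. It was 0.22 when values under background were raised to it, 0.22 with Lgmn, Apoe, Itgam and Itgax counted in this group, and 0.23 with array weights. The array medians of this group were 6.75, 6.31 and 6.82 in pancreas, against 6.09, 6.26 and 6.11 in spleen, with pancreas array 2 the lowest of the pancreas arrays.

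Cybb encodes the catalytic subunit of the phagocyte NADPH oxidase, the enzyme of the respiratory burst. It was at 9.75, 9.27 and 8.92 in pancreas, against 8.50, 8.22 and 8.70 in spleen, above background on all arrays and without overlap. The 1.79-fold difference (log2 fold change 0.84 ± 0.23 SE) did not pass (adjusted p = 0.202). Without pancreas array 3 it did (1.04, adjusted p = 0.0220), and over its 15 alternatives the adjusted p ran from 0.00178 to 0.814.

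Fcer1g and Tyrobp encode the adaptor chains FcRγ and DAP12, which signal for Fc and activating receptors in myeloid and natural killer cells. Fcer1g was at 6.75, 6.31 and 6.82 in pancreas, against 6.09, 6.26 and 5.82 in spleen (log2 fold change 0.57 ± 0.20 SE, adjusted p = 0.425). Tyrobp was at 6.88, 6.69 and 6.84 in pancreas, against 6.54, 6.42 and 6.18 in spleen (0.42 ± 0.17 SE, adjusted p = 0.590). Neither overlapped, by margins of 0.05 for Fcer1g and 0.15 for Tyrobp. Fcgr3, a receptor that needs the Fcer1g chain, was below background on all 6 arrays.

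Spi1 was at 6.02, 5.71 and 6.35 in pancreas, against 5.03, 5.61 and 5.34 in spleen. All spleen arrays and 1 pancreas array were below background, so the difference was at least 1.03-fold against that level (fitted log2 fold change 0.70 ± 0.21 SE, adjusted p = 0.305). Mpeg1, which encodes the pore-forming protein perforin-2, was at 6.70, 6.20 and 6.55 in pancreas, against 5.88, 6.17 and 6.11 in spleen, separated by 0.03 (0.43 ± 0.18 SE, adjusted p = 0.674). Aif1, the gene of the actin-binding protein IBA1 of macrophages and microglia, was below background on all arrays.

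Cst3 and Ctss, the genes of the protease inhibitor cystatin C and of the antigen-processing protease cathepsin S, were well above background in both tissues. Cst3 was at 11.36, 11.43 and 11.11 in pancreas, against 10.98, 10.97 and 11.28 in spleen (log2 fold change 0.22 ± 0.17 SE). Ctss was at 9.73, 9.40 and 8.98 in pancreas, against 9.41, 9.12 and 9.80 in spleen (-0.07 ± 0.23 SE), and its direction turned under 4 alternatives. The tissues overlapped for both genes.

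The dendritic cell genes showed 1 large difference among mostly dim genes. Of the 7, 4 were below background on every array: Flt3, Xcr1, a chemokine receptor, and Clec9a, a receptor for dead-cell actin, both of cross-presenting dendritic cells, and Itgax, the CD11c integrin chain. In limma 0 of the 7 passed in either direction, and 1 was higher and 0 lower at an unadjusted p under 0.05. Zbtb46 was at 5.78, 6.23 and 6.15 in pancreas, against 6.02, 6.01 and 6.05 in spleen, at the background level with no separation. Flt3 did not overlap, at 5.66, 5.71 and 5.81 in pancreas, against 5.56, 5.30 and 5.46 in spleen, but every value lay below background.

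Cd209a encodes DC-SIGN, a lectin of monocyte-derived and other dendritic cells. It was at 7.40, 6.27 and 7.91 in pancreas, against 6.02, 5.70 and 5.64 in spleen. The tissues did not overlap, yet the pancreas arrays were spread widely, with arrays 1 and 3 high and array 2 only 0.26 above the highest spleen array. With the 2 spleen arrays below background raised to that level, the difference was at least 2.30-fold, and the fitted log2 fold change of 1.41 ± 0.34 SE did not pass the test (adjusted p = 0.132). Without pancreas array 2 it passed (1.87, adjusted p = 0.00863), and over the 6 fits with 1 array left out the adjusted p reached 0.440. With array weights the log2 fold change was 0.80 (adjusted p = 0.0435), and with values raised to background it was 1.20 (adjusted p = 0.894).

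The other genes of the Cd209 family were dim: Cd209b, Cd209c, Cd209d, Cd209e, Cd209f and Cd209g had means below background in both tissues, with log2 fold changes from -0.05 to 0.55. Siglech, the plasmacytoid dendritic cell marker, was at 6.39, 6.07 and 6.36 in pancreas, against 6.34, 5.87 and 5.83 in spleen, with overlap (0.26 ± 0.19 SE).

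**Figure D2:**
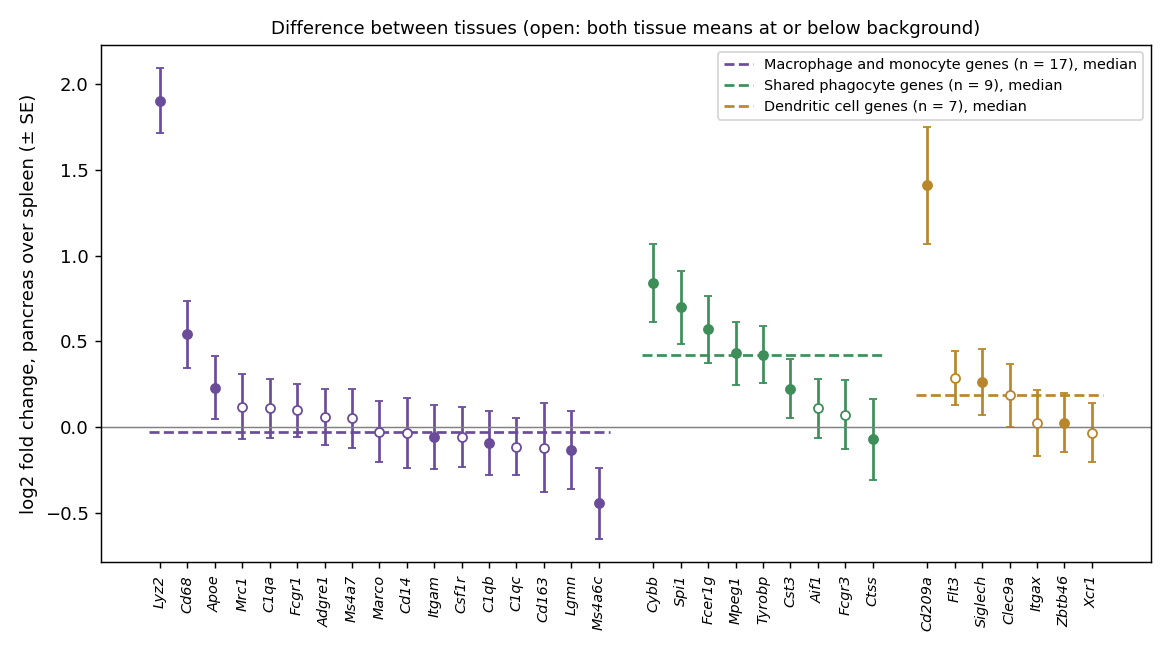
Log2 fold change, pancreas over spleen, of each member with its SE (n = 3 arrays each), by group, with the group medians as dashed lines. Open points have both tissue means at or below background. Lyz2 at 1.90 and Cd209a at 1.41 stand above the rest, and the group medians lie at -0.03, 0.42 and 0.18 for macrophage, shared and dendritic cell genes.

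Set against each other, the macrophage and the dendritic cell genes had a median log2 fold change of -0.03 and 0.18, a difference of -0.21. Genes are not replicates, so this difference has no test. The array medians of the macrophage genes were 5.66, 5.82 and 5.95 in pancreas, against 5.94, 5.74 and 5.72 in spleen. Those of the dendritic cell genes were 5.66, 5.71 and 5.81 in pancreas, against 5.69, 5.66 and 5.46 in spleen. Both sets of medians overlapped between tissues and lay below background. Over only the members with a mean above background (7 macrophage and 3 dendritic cell genes), the medians were -0.06 and 0.26, a difference of -0.32. Of the macrophage genes 8 of 17 had a higher mean in pancreas, and of the dendritic cell genes 6 of 7, where 49.8% of all genes did. The difference of -0.21 became -0.12 without pancreas array 1 and -0.11 without spleen array 3, and it was 0 when values under background were raised to it. That setting gives 0 for 9 of the 17 and 4 of the 7 genes, all below background on every array.

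The dim members varied with the width of the arrays. Averaged over the 17 members with a mean below background, the log2 intensity was 5.26, 5.36 and 5.57 on pancreas arrays 1 to 3, against 5.46, 5.31 and 5.17 on spleen arrays 1 to 3. Pancreas array 3 gave the highest pancreas value for 13 of these 17 and spleen array 1 the highest spleen value for 12, and these were the narrowest arrays. Over all 8011 genes below background the averages ran the same way, at 4.76, 4.96 and 5.18 in pancreas, against 5.07, 4.89 and 4.79 in spleen.

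**Figure D3:**
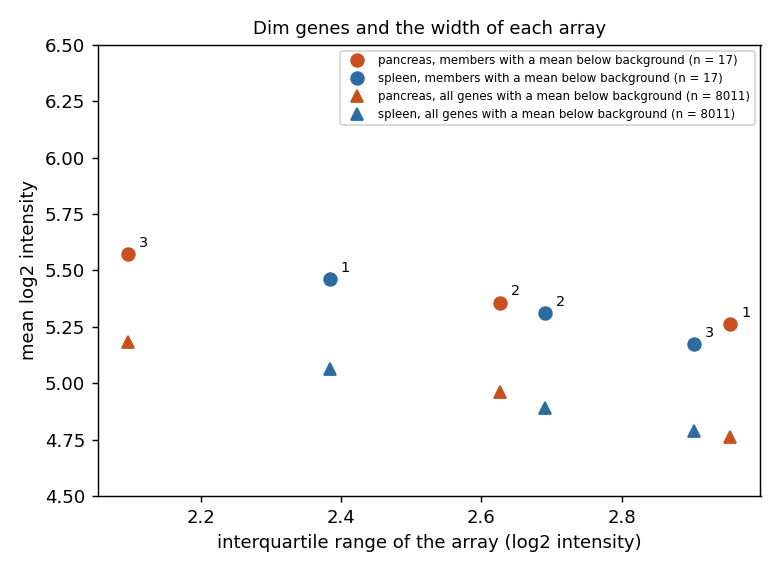
Mean log2 intensity of genes with a mean below background against the interquartile range of each array, for the 17 such members (circles, with the replicate number) and for all 8011 such genes (triangles), pancreas in orange and spleen in blue. The highest points are pancreas array 3 and spleen array 1, at ranges of 2.10 and 2.38.

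Among further genes of the same lineages, 0 macrophage and monocyte genes and 2 dendritic cell genes passed the test. Of 32 other macrophage and monocyte genes measured, 0 passed in limma in either direction (4 higher and 0 lower at an unadjusted p under 0.05). Their median log2 fold change was 0.10. Arrays did not overlap for 4 that were higher in pancreas (12.5%, against 4.57% of all genes) and for 1 that was lower. The 3 above background with the smallest adjusted p were the chemokine receptor gene Ccr2 (9.34 ± 0.29 in pancreas and 8.54 ± 0.03 in spleen, adjusted p = 0.104), the receptor tyrosine kinase gene Axl (log2 fold change 0.87, adjusted p = 0.347) and Lyz1. Activated T cells can express Ccr2 as well. Of 24 other dendritic cell genes, 6 did not overlap and were higher in pancreas (25%, against 4.57% of all genes), and 1 did not overlap and was lower. At an unadjusted limma p under 0.05, 4 were higher and 1 lower. With adjustment, 0 were called lower and 2 were called higher in pancreas (8.33%, against 0.547% of all genes). They were Irf8, a transcription factor of dendritic cell, B cell and T cell programmes (9.15 ± 0.14 in pancreas and 7.98 ± 0.25 in spleen, 2.24-fold, adjusted p = 0.0183), and Id2, an inhibitor of helix-loop-helix factors common in effector lymphocytes (10.67 ± 0.11 in pancreas and 9.65 ± 0.31 in spleen, 2.03-fold, adjusted p = 0.0473). The third by p, Spib, a relative of PU.1 in B cells and plasmacytoid dendritic cells, was at 6.62, 5.75 and 6.40 in pancreas, against 5.47, 5.39 and 5.08 in spleen (at least 1.21-fold, since all spleen arrays were below background, adjusted p = 0.141).

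No partner gene of the members passed the test. Among 12 oxidase subunits, integrin partners and adaptor-coupled receptors and kinases, 0 passed in limma in either direction (1 higher and 0 lower at an unadjusted p under 0.05). Cyba, whose protein forms the membrane core of the oxidase with that of Cybb, averaged 11.25 ± 0.17 in pancreas and 11.46 ± 0.08 in spleen. Its log2 fold change was -0.21, opposite in direction to that of Cybb. The tissues did not overlap, narrowly, with the highest pancreas array at 11.38 and the lowest spleen array at 11.39. The cytosolic subunit gene Ncf4 averaged 9.05 ± 0.28 in pancreas and 8.77 ± 0.26 in spleen (0.27). The kinase gene Syk, which acts below Fcer1g and Tyrobp, was below background on all spleen arrays (at least 1.37-fold, limma adjusted p = 0.469). The tissues did not overlap, but only barely. Pancreas array 2, at 5.9099, was also below background, and the highest spleen array was at 5.9082.

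A list of 10 ligands held those of member receptors, and also Cd47, Csf2 and Csf3, whose receptors are not members. Of the 10, 0 passed in limma in either direction (2 higher and 1 lower at an unadjusted p under 0.05). Xcl1, the ligand of Xcr1, averaged 6.73 ± 0.37 in pancreas and 5.82 ± 0.16 in spleen (SD, n = 3 each), with 1 spleen array just above background and no overlap (fitted log2 fold change 0.92 ± 0.21 SE, adjusted p = 0.104). Icam1, a ligand of the Itgam and Itgax integrins, had 0.52 (adjusted p = 0.497), and Cd47, which restrains phagocytosis, had -0.47 (adjusted p = 0.436). Among 13 cathepsins and cystatins, 0 passed in limma in either direction (4 higher and 0 lower at an unadjusted p under 0.05). Of those with a tissue mean above background, the smallest adjusted p were those of Ctsw, a cathepsin of cytotoxic lymphocytes (1.42, adjusted p = 0.0736), Cst7 (0.65, adjusted p = 0.462) and Ctsb (0.45, adjusted p = 0.551).

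Genes of other cell types also differed between the tissues. The mean was higher in pancreas for all 15 B cell genes, and 5 of the 15 passed in limma (33.3%, against 0.547% of all genes called higher). The smallest adjusted p were those of the antigen presentation genes H2-Aa (5.70-fold, adjusted p = 0.00506), Cd74 (4.72-fold, adjusted p = 0.00586) and H2-Ab1 (3.23-fold, adjusted p = 0.00952), which macrophages and dendritic cells also express. The others were H2-Eb1, of the same kind (3.20-fold, adjusted p = 0.0152), and Cd79a, a chain of the B cell receptor (at least 2.93-fold with 2 spleen arrays raised to background, adjusted p = 0.0482). The summed intensity of the 15 was 2690 to 5561 in pancreas, against 1238 to 1631 in spleen, and their mean log2 intensity was 7.72, 6.88 and 7.99 in pancreas, against 6.10, 6.37 and 6.03 in spleen. Pancreas array 2 was the lowest pancreas array for 15 of these 15 genes, and for 6 of the 9 members whose arrays did not overlap (Lyz2, Cd209a, Fcer1g, Tyrobp, Spi1 and Mpeg1). For Lyz2 it lay close to the other pancreas arrays. How often array 2 was the lowest over all genes was not counted, so the 6 of 9 has no share to be read against. The part of B cell RNA in these members' differences was not tested.

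Acinar cells make digestive enzymes and lack CD45, so the gate would leave them out as well. The mean was higher in pancreas for all 15 acinar genes. In limma 13 of the 15 were called higher (86.7%, against 0.547% of all genes). Clps and Cpa1 had the smallest adjusted p of the list (20.6-fold and 20.1-fold, adjusted p = 9.26e-05 and 0.00134), and Ctrb1 had the largest fold (23.8-fold, adjusted p = 0.00952). The list had a summed intensity of 13907 to 29495 in pancreas, against 1175 to 2865 in spleen. Here pancreas array 2 was the highest, at a mean log2 intensity of 10.18, beside 9.39 on array 1 and 8.88 on array 3. The part of acinar RNA in the members' differences was not tested. Of 14 neutrophil genes, which share Lyz2 expression with macrophages, 0 passed in limma in either direction (1 higher and 1 lower at an unadjusted p under 0.05), and 9 of the 14, among them S100a8, Csf3r and Elane, were below background on every array. Their summed intensity was 737 to 810 in pancreas, against 635 to 710 in spleen. That sum includes Mmp9, at 7.74, 7.76 and 7.30 in pancreas, against 6.39, 6.99 and 6.95 in spleen (limma adjusted p = 0.167). As 12 of the 14 genes had a mean below background, the sum is not a measure of neutrophil RNA. A list of 11 CD8 T and natural killer cell genes holds receptor partners of Fcer1g and Tyrobp. Of the 11, 1 was called higher in pancreas in limma (9.09%, against 0.547% of all genes). It was Klrd1, below background on all 6 arrays. At an unadjusted limma p under 0.05, 4 of the 11 were higher and 0 lower. The summed intensity of the 17 macrophage and monocyte members was 2113 to 2190 in pancreas, against 1861 to 2295 in spleen. Ms4a6c and Lgmn, the brightest of the 17, weigh most in that sum, and Ms4a6c may share signal with related genes. The sum of the 7 dendritic cell members was 393 to 575 in pancreas, against 313 to 384 in spleen. Cd209a, the brightest of the 7 on each pancreas array, weighs most in the pancreas sums, and a sum without it was not computed.

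**Figure D4:**
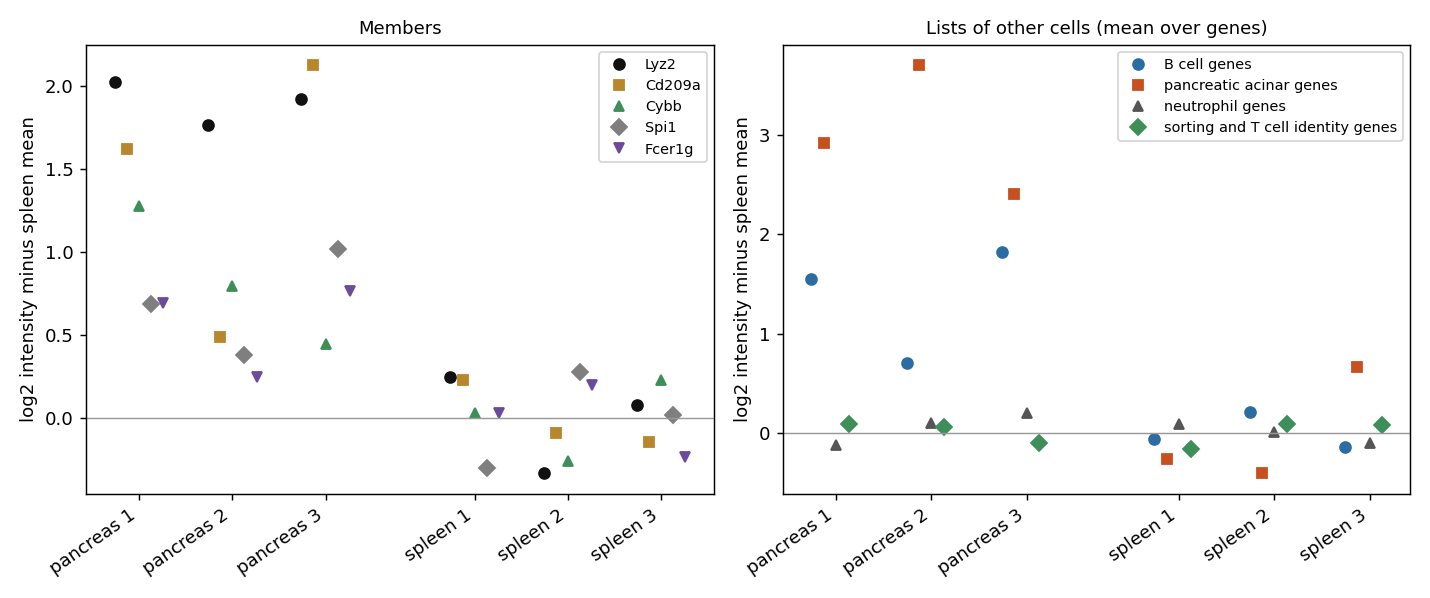
Log2 intensity minus the spleen mean on each array, for 5 members (left) and for the mean of 4 gene lists (right), with points set apart sideways for clarity. Cd209a, Spi1, Fcer1g and the B cell genes are lowest on pancreas array 2 among the pancreas arrays, Lyz2 is high on all 3, and the acinar genes are highest on pancreas array 2.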

How the data were processed

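The authors deposited probe-set intensity values on a linear scale, and the submitters' processing notes list RMA and Affymetrix Power Tools. Versions, genome build and normalization across arrays are not given in the sources used here. Values (4.78 to 17604) were taken to log2 with no pseudocount or filter. Of 24922 probe sets, 21425 name 1 gene in the platform annotation. For 921 genes with several, the one with the highest mean was used, which left 19752 genes.

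All genes were fitted with limma 3.58.1 (R 4.3.3; lmFit, eBayes, no covariates, all 6 arrays, two-sided). P-values were adjusted by Benjamini-Hochberg across the 19752 genes, with calls at 0.05, and the fit was tested on simulated data. Fold changes are pancreas over spleen. Members, groups and lists were chosen with earlier results of these data known. Full values and alternatives are given for members past the threshold, for members above background whose arrays do not overlap, and for the 8 with the highest mean; of other lists, up to 3 genes above background with the smallest adjusted p. Related genes (the Cd209, Ms4a and lysozyme families), array values of further members among the 33, and the motif were added after seeing values. Promoters were aligned with Biopython 1.88. Alternatives covered normalization, spread, background, dim genes, probe sets, variance, array weights, the replicate number as a block, grouping of members, and each array left out. The number of arrays limits the precision.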

Additional observations from a re-analysis of the deposited data

How the results depend on the processing

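The alternatives were computed for 13 members (those past the threshold, those whose arrays did not overlap with a tissue mean above background, and the 8 with the highest mean). Of these, 11 kept their direction under every alternative, as did 188 of 194 single values. Ctss was 0.0392 in place of -0.07 with arrays scaled to the mean interquartile range, 0.13 with array weights, and -0.25 to 0.12 with 1 array left out (0.12 without pancreas array 3 and 0.11 without spleen array 3). Lgmn was -0.32 to 0.0905 with 1 array left out (0.0905 without pancreas array 3 and 0.0035 without spleen array 2). The call of Lyz2 ended when values under background were raised to it (adjusted p = 0.0896). The cause of these changes was not tested. The count of members higher in pancreas was 0 with that setting, 4 with array weights and 2 with the replicate number as a block, and 1 to 2 with 1 array left out; array weights also called 1 member lower. The weights were estimated gene by gene, a choice made after seeing the data, since the usual estimate did not converge. The count over all genes (134) was 64 with arrays centred on their medians, 212 with quantile normalization, 66 with scaled arrays, 3 with values raised to background, 1684 with array weights, and 64 to 262 with 1 array left out (64 without spleen array 1, 66 without pancreas array 2, 74 and 87 without spleen arrays 3 and 2, 262 without pancreas array 3).

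The median of the dendritic cell genes was 0 with values raised to background and 0.0345 to 0.28 with 1 array left out. The macrophage minus dendritic cell difference was 0 with that setting, -0.32 both over genes tested only above background and over members above it, and -0.19 to -0.11 with 1 array left out. The labels do not say whether same-numbered arrays are pairs, and the data could not settle it. Their deviations from the tissue means correlated at -0.46, 0.11 and -0.68 over genes. Pancreas array 3 and spleen array 1, the narrowest arrays, correlated at 0.65, so differences in array width could hide a pairing. With the replicate number as a block, Cd209a passed (adjusted p = 0.0309). Signal near background limits 17 of the 33 members.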
